A study of Rattus norvegicus with 16 samples.

Results

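The genes for metabotropic glutamate receptors were measured in the whole hippocampus of adult male Sprague-Dawley rats 24 h after brain injury. The genes taken were Grm2, Grm3, Grm4, Grm5, Grm6, Grm7 and Grm8, and their probes were those whose gene name in the scanner files equals one of these symbols. These 7 genes had 8 of the 30367 probes on the array, 2 of them for Grm4 and 1 for each other gene. All 8 probes were among the 22821 that were tested, being well above background on all arrays of 1 group or more. Whole-hippocampus RNA was amplified from its poly(A) fraction and hybridised to 1-colour Agilent arrays, 16 in all. Rats were left untouched (Naive, 3 arrays), were anesthetized and prepared without injury (Sham, 2 arrays), or received a severe fluid percussion injury, in which a pressure pulse on the exposed dura injures the brain (TBI, 3 arrays). In the other 3 groups the same injury was followed by a compound: PMI by oral gavage (TBI+PMI, 3 arrays), JM6 by oral gavage (TBI+JM6, 3 arrays), or E33, an estrogen given under the skin according to the labels and into the peritoneum according to the methods (TBI+E33, 2 arrays). All rats of the 5 operated groups shared anesthesia and surgical preparation, and the tissue held every cell type of the hippocampus.

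Glutamate acts on these receptors through G proteins, more slowly than on its ion channel receptors. The group I receptor encoded by Grm5 couples to Gq, which activates phospholipase C and releases calcium through inositol trisphosphate receptors, and it is held in the postsynaptic density by Homer and Shank scaffold proteins. The group II receptors (Grm2, Grm3) and the group III receptors (Grm4, Grm6, Grm7, Grm8) couple to Gi and Go, lower adenylyl cyclase activity and, at many synapses, limit transmitter release from the terminal. In the hippocampus Grm2 is known from dentate granule cells and their mossy fibre terminals, Grm3 from astrocytes as well as neurons, and Grm7 from presynaptic active zones, whereas Grm6 is best known from bipolar cells of the retina.

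What each value reports is set by the 60 bases of its probe. The 3 probe sequences below are shown because their genes carry comparisons that follow and because they fix what part of a transcript was read. All are in the direction of the transcript, 5′ to 3′.
Grm5: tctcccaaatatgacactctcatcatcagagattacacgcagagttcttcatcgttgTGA
Grm7: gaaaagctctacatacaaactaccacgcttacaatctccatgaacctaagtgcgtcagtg
Grm8: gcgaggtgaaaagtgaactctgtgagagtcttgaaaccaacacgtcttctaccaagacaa
The capitals mark the stop triplet at the end of the Grm5 probe, which lies on chr1:144477224-144477283 (plus strand, rat build rn4) and reads the end of the coding sequence. The Grm7 probe spans 112839 bases of genome on chr4:147088377-147201215 (plus strand) and the Grm8 probe 6498 bases on chr4:53976813-53983310 (minus strand), so that the 60 bases of each fall in more than 1 exon and read spliced RNA. The Grm2 probe lies on chr8:111838413-111838472 (minus strand) and the Grm6 probe on chr10:36436657-36436716 (plus strand). The Grm4 probes, A_64_P163070 on chr20:5627795-5627854 and A_43_P15406 on chr20:5627750-5627809 (both minus strand), overlap by 15 bases. They differ in base composition, at 55% and 36.7% G and C against a mean of 44.7% over tested probes.

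Signals were divided by a level of their own array, the 75th percentile over probes that cleared background, and put on the log2 scale, so that 0 is that percentile and 1 unit is a 2-fold difference. Arrays were scanned in 2 sessions. The Naive, Sham and TBI arrays came in the first, with 16274 to 18239 probes well above background per array, and the 3 drug groups in the second, with 20256 to 24979. Every comparison of a drug group with TBI is therefore also a comparison of sessions, and the drug and the session cannot be told apart. Within a session, arrays lay on 2 slides of 4: Naive 3 shared a slide with the TBI arrays, and the other Naive arrays shared one with Sham. No slide held both TBI and Sham, so every comparison of TBI with Sham is also a comparison of slides.

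The 8 probes were well above background on all 16 arrays, with 3 exceptions. Grm5 was not well above background on TBI 2, Grm8 was not on TBI 1 and TBI 3, and the Grm3 spot on TBI+E33 2 was flagged as an outlier and gave no value. No probe was saturated. Over the 16 arrays the scaled signal of Grm3 spanned 2.54-fold, that of Grm6 2.78-fold and that of Grm7 3.02-fold, and that of the Grm4 probe A_43_P15406 spanned 10.3-fold. Grm2 spanned 7.13-fold, the Grm4 probe A_64_P163070 7.45-fold and Grm8 8.99-fold. The widest span was that of Grm5, 19.8-fold, with its lowest value on TBI 2.

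**Figure D1:**
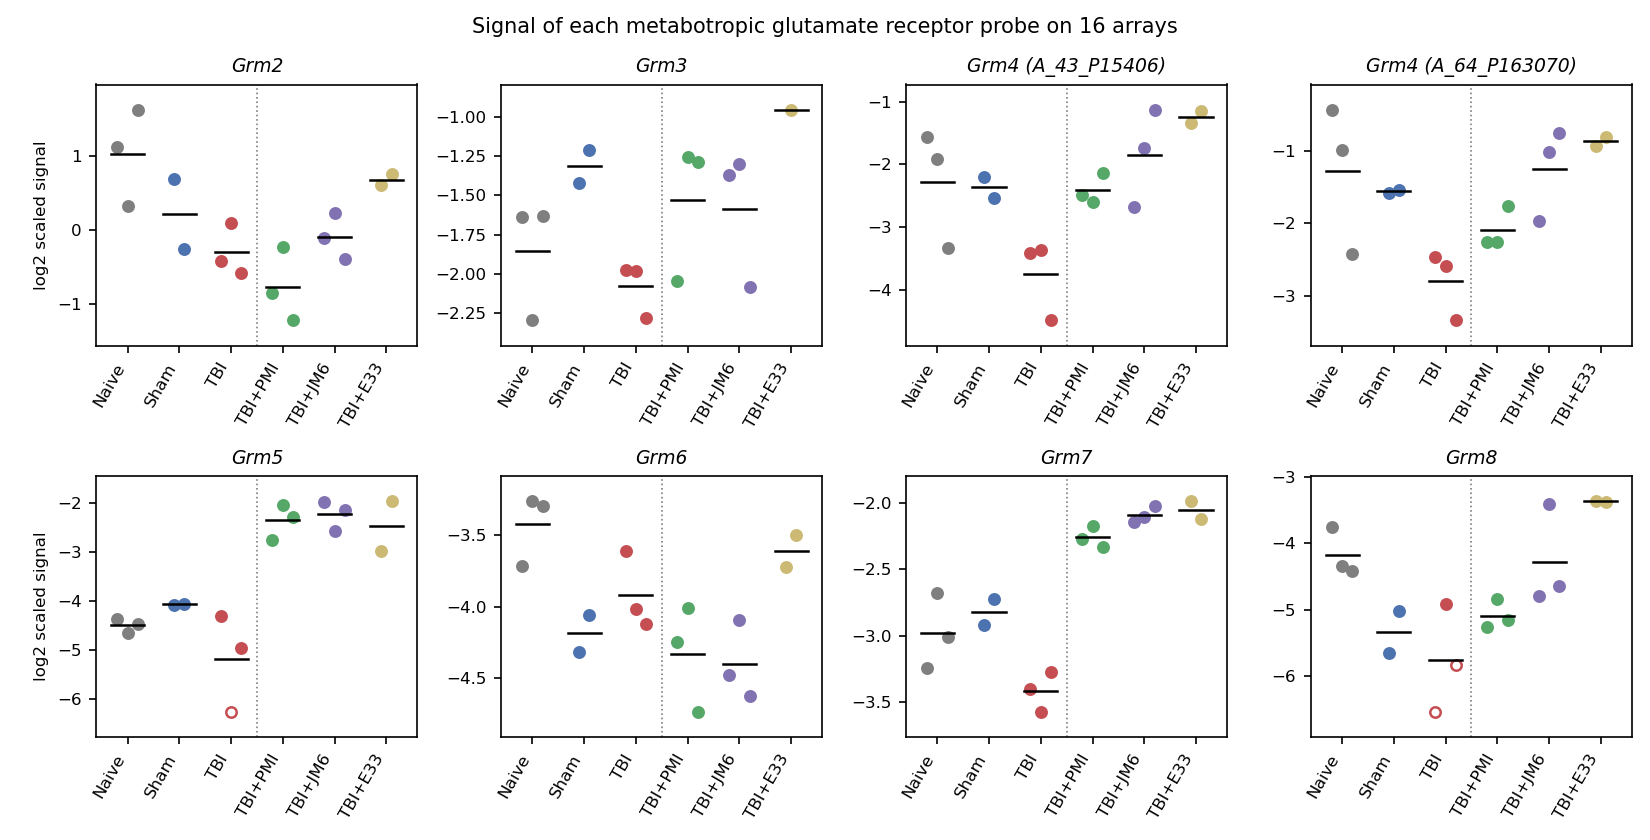
Log2 scaled signal (vertical axis, with a range of its own for each probe) of the 8 receptor probes on each array, by group. Points are arrays, open points are arrays on which the probe was not well above background, short bars are group means, and the dotted line parts the 2 scanning sessions. The TBI points of both Grm4 probes and of Grm7 lie below every Sham point, and every drug-group point of Grm5 lies above all Naive, Sham and TBI points.

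Injury was first set against sham surgery, with the TBI and Sham arrays on different slides. The mean of 7 of the 8 receptor probes was lower in TBI than in Sham, but none passed the test across all probes (limma, Benjamini-Hochberg adjusted p under 0.05), where 9.38% of all tested probes did. At an unadjusted p under 0.05, 5 of the 8 differed, those of Grm3, Grm5 and Grm7 and both of Grm4, and the TBI and Sham arrays of these 5 did not overlap. The share of all tested probes at that unadjusted level, or without overlap, was not counted for this or later comparisons. Such counts therefore do not set the receptors apart from other probes. The median log2 difference of the 8 probes was -0.68, against -0.03 over all tested probes. Against Naive, the mean of all 8 probes was lower in TBI, with a median of -1.01 against 0.04 over all probes. Against Naive 1 of the 8 passed the test, that of Grm8, where 4.71% of all probes did, and 5 had an unadjusted p under 0.05. Under quantile normalization the medians of the 8 were -0.57 against Sham and -1.06 against Naive, and none passed either test. Between Sham and Naive, none of the 8 passed, where 8.07% of all probes did, and 2 had an unadjusted p under 0.05. TBI served in the first pair of these comparisons and Naive in the last pair, so they are not independent.

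**Figure D2:**
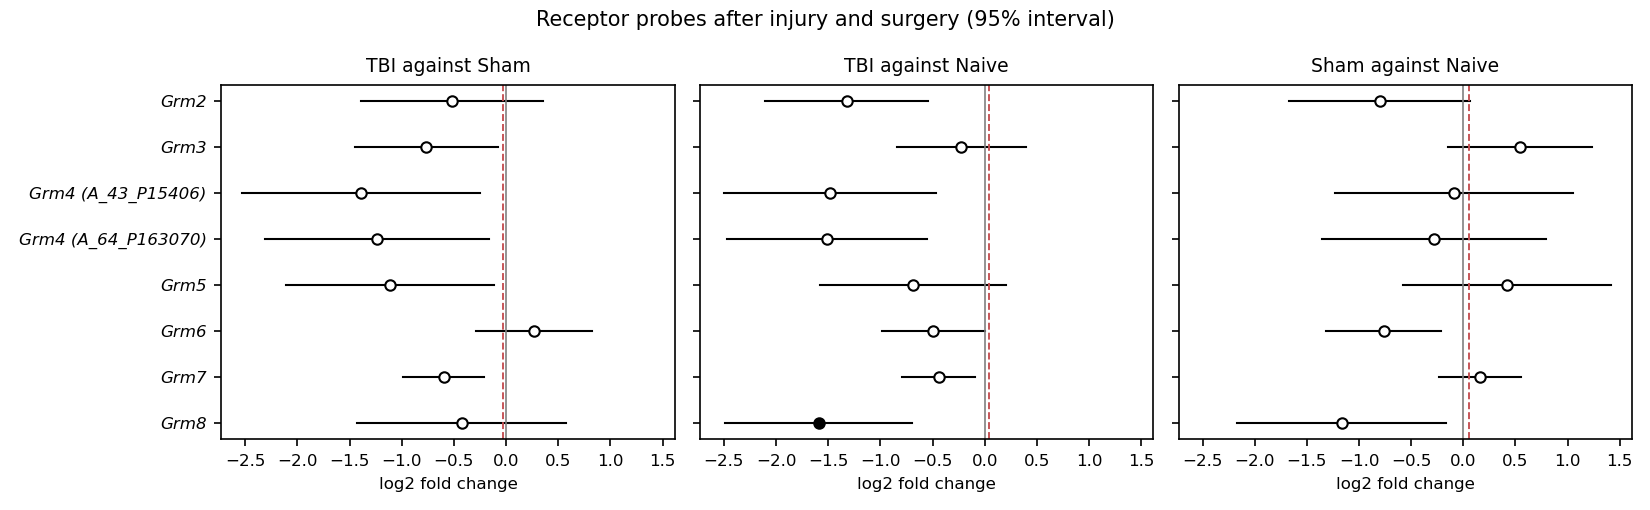
Log2 fold change (horizontal axis) of each receptor probe in the 3 comparisons within the first scanning session, with 95% intervals from limma. Filled points passed the adjusted threshold, and the dashed line is the median of all tested probes. The only filled point is Grm8 in TBI against Naive, at -1.59.

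Among the group I receptors, Grm5, the postsynaptic Gq-coupled receptor, had log2 levels of -4.36, -4.65 and -4.46 in Naive and of -4.08 and -4.05 in Sham. In TBI they were -4.30, -6.26 and -4.96. The TBI values were the most scattered, and the lowest of them, on TBI 2, was the one not well above background. TBI was below Sham by a log2 difference of -1.11 (SE 0.46, adjusted p = 0.148). Without TBI 1 the difference was -1.55 and passed the test (adjusted p = 0.0258), and with normexp background correction it was 0.08. The TBI and Naive arrays overlapped.

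In group II, Grm2, the autoreceptor known from mossy fibre terminals, had levels of 1.12, 0.32 and 1.62 in Naive, 0.69 and -0.26 in Sham, and -0.42, 0.09 and -0.58 in TBI. The order of the means was Naive, Sham, TBI, with Sham overlapping both of its neighbours and no overlap between Naive and TBI. TBI was below Naive by a log2 difference of -1.32 (SE 0.36, adjusted p = 0.0547), which did not pass the test. Without Naive 2, the lowest Naive array, it was -1.67 and passed (adjusted p = 0.0294). Within the slide that held both groups the difference was -1.92, on 1 Naive array.

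Grm3, the group II receptor that astrocytes also carry, had levels of -1.64, -2.30 and -1.63 in Naive, -1.42 and -1.21 in Sham, and -1.97, -1.98 and -2.28 in TBI. The Sham arrays were the highest of the session, and the Naive and TBI arrays overlapped. TBI was below Sham by -0.76 (SE 0.32, adjusted p = 0.15).

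In group III, both Grm4 probes gave the same picture in arrays of this session. For A_43_P15406 the levels were -1.57, -1.92 and -3.34 in Naive, -2.20 and -2.53 in Sham, and -3.41, -3.37 and -4.49 in TBI. For A_64_P163070 they were -0.44, -0.99 and -2.42 in Naive, -1.58 and -1.54 in Sham, and -2.46, -2.59 and -3.34 in TBI. Their values lay 0.62 to 1.15 apart on the same array, and the TBI arrays were the lowest of the session with both. TBI against Sham gave -1.39 (SE 0.53, adjusted p = 0.114) and -1.23 (SE 0.50, adjusted p = 0.135), and TBI against Naive gave -1.48 (SE 0.47, adjusted p = 0.0927) and -1.51 (SE 0.44, adjusted p = 0.0714). Naive 3, the Naive array on the slide of the TBI arrays, lay within 0.05 of the nearest TBI array with both probes. Within that slide TBI was below it by -0.42 and -0.38, and with slide as a fixed block TBI against Sham turned to 0.21 and 0.47. Without Naive 3, TBI against Naive was -2.02 and -2.08 and passed with both probes (adjusted p = 0.0336 and 0.0195).

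Grm7, the group III receptor of the presynaptic active zone, had levels of -3.25, -2.68 and -3.01 in Naive, -2.92 and -2.72 in Sham, and -3.40, -3.58 and -3.27 in TBI. Every TBI array lay below every Sham and Naive array, by a narrow margin from Naive 1. TBI was below Sham by -0.60 (SE 0.18, adjusted p = 0.0551), a fold of 1.52, and below Naive by -0.44 (SE 0.16, adjusted p = 0.139), without passing either test.

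Grm8, a group III receptor of terminals, was the only member called within this session. Its levels were -3.75, -4.33 and -4.42 in Naive, -5.66 and -5.02 in Sham, and -6.54, -4.91 and -5.84 in TBI. Naive stood above all Sham and TBI arrays, whereas Sham and TBI overlapped. TBI fell below Naive by a log2 difference of -1.59 (SE 0.41, adjusted p = 0.0469), with 1 of 3 TBI arrays well above background. Sham was below Naive by -1.17 (SE 0.46, adjusted p = 0.15). Within the shared slides the differences were -1.34 for TBI and -1.29 for Sham. The TBI call stayed without TBI 2 (adjusted p = 0.0311) and was lost without any other of the 6 arrays (adjusted p 0.0730 to 0.169), and under quantile normalization it was -1.42 (adjusted p = 0.0750, with 0.0233 to 0.811 over all alternatives).

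Grm6, the receptor of retinal bipolar cells, had levels of -3.71, -3.26 and -3.30 in Naive, -4.32 and -4.06 in Sham, and -3.61, -4.02 and -4.12 in TBI. The Naive arrays were above both Sham arrays, and TBI overlapped both groups. Sham was below Naive by -0.76 (SE 0.26, adjusted p = 0.0891).

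Cell type markers moved in the same arrays, on which neuronal markers such as Snap25, a protein of the synaptic vesicle release machinery, were well above background throughout. Over all tested probes, 9.38% were called in TBI against Sham, 4.71% in TBI against Naive and 8.07% in Sham against Naive. Of 4 dentate granule cell markers, 2 fell in TBI against Sham, C1ql2 and Calb1, and 1, C1ql2, against Naive. The summed level of the 4 was 1.77 to 2.38 in Naive, 2.40 to 2.55 in Sham and 0.555 to 1.08 in TBI. Prox1, which defines these cells, was well above background on Naive 1 and on no other Naive, Sham or TBI array. Of 7 neuronal markers measured, 2 fell in TBI against Sham, Snap25 and Slc17a7, and none against Naive, with sums of 17.3 to 18.9 in Naive, 23.8 to 26.1 in Sham and 13.7 to 19.1 in TBI. None of 6 astrocyte markers was called in TBI against Sham. Against Naive, 1 of the 6 rose and 1 fell in TBI, and 1 rose in Sham. Gfap of this list stood at -0.67, -0.57 and -0.66 in Naive, 1.97 and 0.80 in Sham, and 1.64, 2.20 and 1.87 in TBI. Of 5 microglia and macrophage markers, 2 rose in TBI against Sham and 1 against Naive. Of 5 oligodendrocyte markers, 2 fell in TBI against Sham, Cnp (-1.28) among them, also under quantile normalization, and none against Naive, with sums of 79.5 to 114 in Naive, 101 to 106 in Sham and 52.6 to 104 in TBI. Choroid plexus markers, from a tissue next to the hippocampus, were uneven among arrays, with sums of 2.33 to 76.5 in Naive, 4.87 to 121 in Sham and 0.184 to 3.51 in TBI. The part of these cells in the receptor values was not tested, and fewer cells of a type and less RNA per cell cannot be told apart in whole tissue.

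The partners through which the receptors act were read from fixed lists, by the brightest probe of each gene. For the partners too, TBI and Sham arrays lay on different slides. Of 12 group I partners tested, 6 fell in TBI against Sham and none rose, where 9.38% of all tested probes were called. The median log2 difference of the 12 was -0.85 against -0.03 over all probes. The 6 were the scaffold genes Homer2 (-1.63, SE 0.40), Homer3 (-0.95, SE 0.28), Shank1 (-1.93, SE 0.55), Shank2 and Shank3 (-0.98, SE 0.28), and the G protein gene Gna11 (-1.74, SE 0.32). Shank2 was well above background on 1 of 2 Sham arrays and not in TBI, which gives a fold of at least 1.02 (adjusted p = 0.0197). Under quantile normalization, 2 of the 12 passed, with the share of all probes not given here. Against Naive, Homer3 rose in TBI (1.40, SE 0.25, adjusted p = 0.0110) and no group I partner fell, where 4.71% of all tested probes were called. In Sham against Naive, Homer3, Shank1 and Gna11 rose (2.35, 2.02 and 2.12). There 8.07% of all tested probes were called, 1493 higher and 345 lower. The call of Shank1 in Sham was lost under quantile normalization (adjusted p = 0.0955).

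Of 8 partners of the group II and III receptors tested, 3 fell in TBI against Sham and none rose, where 9.38% of all tested probes were called. The median log2 difference of the 8 was -0.79. Pick1, a scaffold that binds the tail of the Grm7 receptor, fell by 1.5 on the log2 scale (SE 0.25, adjusted p = 0.00772). Elfn2, a postsynaptic adhesion protein that binds group III receptors across the cleft, was well above background on both Sham arrays but not in TBI, where it was lower by at least 5.10-fold (adjusted p = 0.00398). Folh1, the peptidase that cleaves the group II agonist N-acetylaspartylglutamate, fell by 0.83 (SE 0.22, adjusted p = 0.0340). Folh1 was also the 1 partner of this list that fell in TBI against Naive (-0.91, SE 0.20, adjusted p = 0.0226), where 4.71% of all tested probes were called. Pick1 and Elfn2 rose in Sham against Naive (1.29 and 1.89), where 8.07% of all tested probes were called. Under quantile normalization Folh1 lost its call against Sham (adjusted p = 0.108) and kept that against Naive (adjusted p = 0.0414), and the rises of Pick1 and Elfn2 in Sham lost theirs (adjusted p = 0.058 and 0.0699). The G protein genes Gnai1, Gnai2, Gnai3 and Gnao1 passed none of these 3 tests under 75th percentile scaling, and Gnai3 was called lower in Sham than in Naive under quantile normalization (-0.94, adjusted p = 0.0379).

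The drug groups were set against TBI across sessions. The probe values of the second session were higher as a whole: the median over all tested probes was 0.79 for TBI+PMI, 0.99 for TBI+JM6 and 1.08 for TBI+E33 against TBI on the log2 scale, and close to 0 under quantile normalization. Of the 8 receptor probes, 3 were called in TBI+PMI, 5 in TBI+JM6 and 7 in TBI+E33, all higher, where 56.7%, 70.1% and 70.3% of all tested probes were called. Under quantile normalization 2 of the 8 were called in TBI+PMI, 2 in TBI+JM6 and 1 in TBI+E33, where 19.2%, 27.2% and 20.4% of all probes were. The receptor probes that kept a call with both were those of Grm5 in TBI+PMI and TBI+JM6, and those called under quantile normalization alone were of Grm6, in the opposite direction. The 3 comparisons share the TBI arrays.

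**Figure D3:**
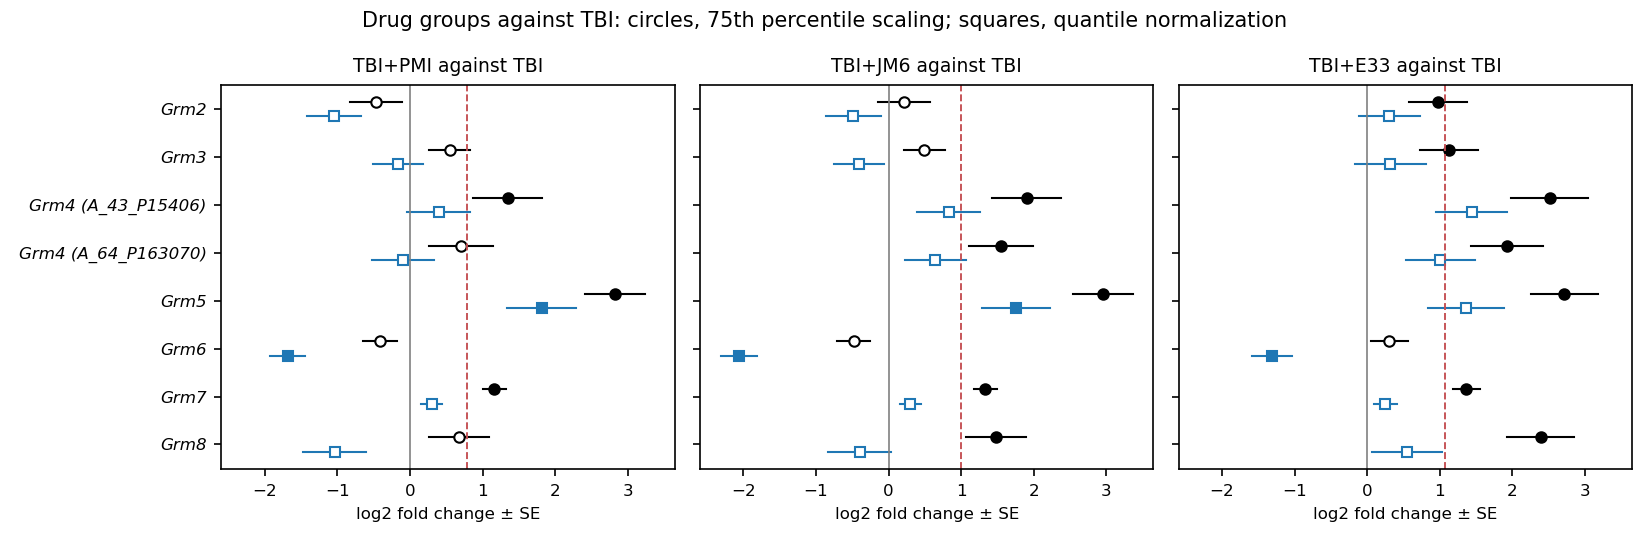
Log2 fold change ± SE (horizontal axis) of each receptor probe in the drug groups against TBI, under 75th percentile scaling (black circles) and quantile normalization (blue squares). Filled symbols passed the adjusted threshold, and the dashed line is the median of all tested probes under 75th percentile scaling. Grm5 lies to the right of that line in all 3 panels, and the Grm6 squares lie between -2.06 and -1.31.

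Grm5 was called higher in each drug group. Its levels were -2.74, -2.03 and -2.27 in TBI+PMI, -1.98, -2.57 and -2.13 in TBI+JM6, and -2.97 and -1.96 in TBI+E33, all above the highest array of the first session, at -4.05. Before scaling, its intensity was 17.0 to 72.1 in TBI, 52.3 to 73.5 in Naive and 86.5 to 95.8 in Sham, and 201 to 427 over the 8 drug-group arrays. Against TBI the log2 difference was 2.83 in TBI+PMI (SE 0.41, adjusted p = 0.000157), 2.95 in TBI+JM6 (SE 0.41, adjusted p = 6.81e-05) and 2.71 in TBI+E33 (SE 0.46, adjusted p = 0.000306). Set against the median of all probes these were 2.04, 1.96 and 1.64. Under quantile normalization they were 1.81 (adjusted p = 0.0211), 1.76 (adjusted p = 0.0179) and 1.36 (adjusted p = 0.0871). Over all alternatives the adjusted p lay between 3.45e-05 and 0.145 for TBI+PMI, between 2.31e-05 and 0.0246 for TBI+JM6 and between 0.000109 and 0.0871 for TBI+E33. The difference was positive in every alternative and with any 1 array left out. Without TBI 2, where Grm5 was not well above background, it was 2.29, 2.41 and 2.17.

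Grm6, by contrast, passed no test against TBI under 75th percentile scaling. Its scaled levels were -4.25, -4.01 and -4.73 in TBI+PMI, -4.48, -4.09 and -4.62 in TBI+JM6, and -3.72 and -3.50 in TBI+E33, overlapping those of TBI in all 3. Its intensity before scaling was 80.7 to 116 in TBI. It was 77.3 to 104 in TBI+PMI, between 56.0 and 109 in TBI+JM6 and between 110 and 120 in TBI+E33. The log2 differences were -0.41 (SE 0.23, adjusted p = 0.136), -0.48 (SE 0.23, adjusted p = 0.0758) and 0.31 (SE 0.26, adjusted p = 0.285), which is -1.20, -1.47 and -0.77 against the median of all probes. Under quantile normalization Grm6 was called lower in all 3, at -1.69 (adjusted p = 0.00178), -2.06 (adjusted p = 0.000509) and -1.31 (adjusted p = 0.00846), whereas with normexp background correction TBI+JM6 turned to 0.32 and TBI+E33 was at -0.01. Over all alternatives the adjusted p ranged from 0.000729 to 0.610, from 0.000147 to 0.602 and from 0.00787 to 0.998 in that order.

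Grm7 was called in each drug group. Its levels were -2.27, -2.17 and -2.33 in TBI+PMI, -2.14, -2.10 and -2.02 in TBI+JM6, and -1.98 and -2.12 in TBI+E33, all of them above every array of the first session. The log2 differences from TBI were 1.16 (SE 0.16, adjusted p = 0.000116), 1.33 (SE 0.16, adjusted p = 2.57e-05) and 1.37 (SE 0.18, adjusted p = 5.63e-05). Against the median of all probes they came to 0.37, 0.34 and 0.29, and under quantile normalization to 0.30, 0.30 and 0.25 with no call.

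Both Grm4 probes were called in TBI+JM6 and TBI+E33 and 1 of them in TBI+PMI. A_43_P15406 stood at -2.50, -2.61 and -2.14 in TBI+PMI, -2.69, -1.75 and -1.13 in TBI+JM6, and -1.34 and -1.15 in TBI+E33. A_64_P163070 stood at -2.26, -2.25 and -1.76, at -1.97, -1.02 and -0.76, and at -0.94 and -0.81 in the same groups. The TBI+E33 arrays were the closest to each other and the TBI+JM6 arrays the widest apart. Against TBI the first probe gave 1.34 (SE 0.47, adjusted p = 0.0274), 1.90 (SE 0.47, adjusted p = 0.00337) and 2.51 (SE 0.53, adjusted p = 0.00122), and the second 1.54 in TBI+JM6 (SE 0.44, adjusted p = 0.00799) and 1.92 in TBI+E33 (SE 0.50, adjusted p = 0.00444). In TBI+PMI the second probe gave 0.71 (SE 0.44, adjusted p = 0.184). Set against the median of all probes the first probe was at 0.56, 0.91 and 1.44 and the second at -0.08, 0.55 and 0.85. The TBI+PMI call of the first probe was lost without TBI 3 (0.98, adjusted p = 0.123), TBI+PMI 1 or TBI+PMI 3 (adjusted p = 0.0546 and 0.0727). No Grm4 probe was called under quantile normalization.

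Grm8 was called in TBI+JM6 and TBI+E33. Its levels were -5.26, -4.84 and -5.16 in TBI+PMI, -4.80, -3.41 and -4.64 in TBI+JM6, and -3.37 and -3.37 in TBI+E33, so that TBI+PMI overlapped TBI and the others did not. The log2 differences from TBI were 1.48 in TBI+JM6 (SE 0.41, adjusted p = 0.00701) and 2.39 in TBI+E33 (SE 0.46, adjusted p = 0.000733), with 2 of the 3 TBI arrays not well above background. Set against the median of all probes they were 0.48 and 1.32. Under quantile normalization they were -0.40 and 0.55, neither called.

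The group II receptors were called only in TBI+E33. Grm2 stood at -0.85, -0.23 and -1.22 in TBI+PMI, -0.11, 0.22 and -0.39 in TBI+JM6, and 0.60 and 0.75 in TBI+E33, whose arrays alone did not overlap TBI. Its difference in TBI+E33 was 0.98 (SE 0.40, adjusted p = 0.0440), below the 1.08 of the median probe, and was lost when TBI 1, TBI 3 or either TBI+E33 array was left out (0.84 to 1.05, adjusted p 0.0929 to 0.167). Grm3 stood at -2.05, -1.26 and -1.29 in TBI+PMI, -1.37, -1.30 and -2.09 in TBI+JM6, and -0.95 on the 1 TBI+E33 array with a value. That array gave a difference of 1.13 from TBI (SE 0.40), with its spread taken from the other groups. The Grm3 call was lost without TBI 3 (1.02). Set against the median of all probes the Grm3 difference was 0.05. Under quantile normalization the TBI+E33 differences were 0.31 for Grm2 and 0.32 for Grm3, neither called.

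Among the partners, 9 of the 12 of group I were called in TBI+PMI, 10 in TBI+JM6 and 10 in TBI+E33, all higher, where 56.7%, 70.1% and 70.3% of all tested probes were called. The 9 called in all 3 groups were Gna11, Gnaq, Plcb1, a phospholipase C driven by Gq, Ncdn, which encodes neurochondrin, Homer2, Homer3, Shank1, Shank2 and Shank3. Under quantile normalization 4, 4 and 3 of the 12 were higher, where 19.2%, 27.2% and 20.4% of all tested probes were called. In each group Gna11, Homer3 and Shank2 were among those higher. Gna11, a Gq-class subunit, was higher by 2.64, 3.03 and 2.87 under 75th percentile scaling and by 1.66, 1.91 and 1.66 under quantile normalization. Homer3 was higher by 1.60, 1.98 and 1.70, and by 0.85, 1.11 and 0.76 under quantile normalization. Shank2, not well above background on any TBI array, was at least 4.07-fold, 4.90-fold and 9.88-fold higher. Gnaq, the Gq subunit itself, was higher by 1.88, 1.78 and 1.55, a call that quantile normalization left in TBI+PMI (adjusted p = 0.0188) and not in TBI+JM6 or TBI+E33 (adjusted p = 0.0534 and 0.396). Homer1, named after its values were seen, encodes the Homer scaffold that links Grm5 to inositol trisphosphate receptors. It was at -0.12, 0.14 and 0.09 under 75th percentile scaling, with no call, and was called lower under quantile normalization, at -0.69 (adjusted p = 0.0155), -0.57 (adjusted p = 0.0267) and -0.64 (adjusted p = 0.0314).

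Of the 8 partners of groups II and III, 6, 6 and 7 were called in the same order, all higher, where 56.7%, 70.1% and 70.3% of all tested probes were. Elfn1, Elfn2, Gnai1, Gnai2, Gnao1 and Pick1 were called in all 3 groups. Under quantile normalization 2, 4 and 4 were higher, where 19.2%, 27.2% and 20.4% of all tested probes were called. Gnao1, the Go subunit, was higher with both scalings, by 1.24, 1.39 and 1.34 and by 0.75, 0.76 and 0.71. Elfn2, also called with both, was at least 5.55-fold higher in TBI+PMI and 10.6-fold higher in TBI+JM6 than in TBI, where no array was well above background. Elfn1, a relative of Elfn2, was at least 1.73-fold, 1.86-fold and 2.30-fold higher, being well above background on 2 of 3, 3 of 3 and 1 of 2 arrays, and lost its calls under quantile normalization. Folh1 was at 0.16, 0.33 and 0.84, called in TBI+E33, and under quantile normalization it was called lower in TBI+JM6 (-0.72, adjusted p = 0.038).

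Cell type markers also differed between the drug groups and TBI. Gfap, the astrocyte filament gene, was higher than in TBI by 2.0 in TBI+PMI, 2.69 in TBI+JM6 and 2.60 in TBI+E33, and by 1.66, 2.28 and 2.14 under quantile normalization, where it was the only one of 6 astrocyte markers called. The summed level of the 6 was 25.5 to 25.8 in TBI, 30.4 to 44.4 in TBI+PMI, between 48.9 and 52.8 in TBI+JM6 and between 50.3 and 52.2 in TBI+E33. Under 75th percentile scaling 1, 2 and 4 of the 6 were called higher in the same order, where 56.7%, 70.1% and 70.3% of all tested probes were called. The median log2 difference of the 6 from TBI was 0.23 in TBI+PMI, 0.38 in TBI+JM6 and 0.56 in TBI+E33. Set against the median of all probes it was -0.56 in TBI+PMI, -0.62 in TBI+JM6 and -0.51 in TBI+E33. Under quantile normalization the median difference of the 6 from TBI was -0.38, -0.34 and -0.14. Of 7 neuronal markers, 5, 5 and 4 were higher in the same order, where 56.7%, 70.1% and 70.3% of all tested probes were called. Under quantile normalization 2, 2 and 1 were higher, where 19.2%, 27.2% and 20.4% of all probes were called. Set against the median of all probes under 75th percentile scaling, the neuronal median was 0.31, 0.33 and -0.31. The dentate granule cell sum was 0.920 to 1.51 in TBI+PMI, between 2.01 and 2.78 in TBI+JM6 and between 1.63 and 2.74 in TBI+E33, against 0.555 to 1.08 in TBI. The choroid plexus sum was 150 in TBI+PMI 1 and no higher than 7.53 on any other drug-group array. The part of these cells in the receptor differences was not tested.

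The drug groups were last compared with each other, within the second session. None of the 8 probes was called between TBI+JM6 and TBI+PMI, TBI+JM6 and TBI+E33, or TBI+PMI and TBI+E33, where 0.0131%, 0.0175% and 0.11% of all tested probes were. At an unadjusted p under 0.05, with the share over all probes not counted, there were 0, 1 and 5. The 5 were all lower in TBI+PMI than in TBI+E33: Grm8 by -1.72 (95% interval -2.72 to -0.71, adjusted p = 0.145), Grm2 by -1.44 (-2.32 to -0.57, adjusted p = 0.153), the Grm4 probes by -1.17 (-2.31 to -0.03, adjusted p = 0.323) and -1.22 (-2.29 to -0.14, adjusted p = 0.275), and Grm6 by -0.72 (-1.27 to -0.17, adjusted p = 0.213). Grm6 was also lower in TBI+JM6 than in TBI+E33, by -0.79 (-1.34 to -0.23, adjusted p = 1.0). No slide held both TBI+PMI and TBI+E33, and with slide as a fixed block A_43_P15406 turned to 0.08. For Grm5 the intervals between drug groups ran from -0.77 to 1.01, from -0.76 to 1.24 and from -0.88 to 1.12 in the order above, and for Grm7 from -0.18 to 0.52, -0.43 to 0.36 and -0.60 to 0.19.

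**Figure D4:**
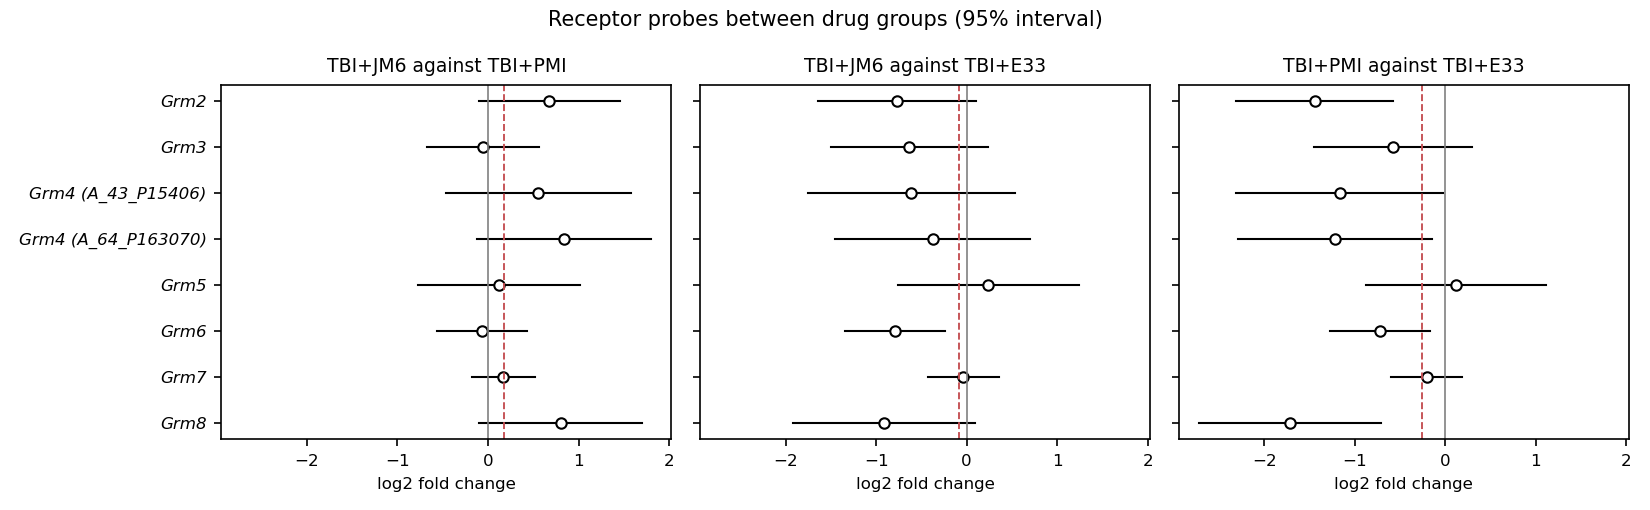
Log2 fold change (horizontal axis) of each receptor probe between drug groups, with 95% intervals from limma; open points did not pass the adjusted threshold, and the dashed line is the median of all tested probes. No point is filled, and the points of TBI+PMI against TBI+E33 reach furthest to the left, at -1.72 for Grm8.

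Genes whose pattern over the arrays was most like that of a receptor were sought among 10836 genes, by Pearson's r over the 16 arrays (15 for Grm3) after the mean of each session was subtracted. The arrays share their groups, their slides and their tissue composition, so r is a description. The nearest pairs were Pde2a (0.92) and Kcnb2 (0.88) for Grm2, Evi2a (0.87) and Hes5 (0.86) for Grm3, Ankrd13d (0.93) and Hdac11 (0.93) for Grm4, and Pwwp2b (0.90) and Htr5b (0.89) for Grm5. For Grm6 they were Abcc6 (0.90) and Noxa1 (0.90), for Grm7 Nsg2 (0.91) and Gaa (0.89), and for Grm8 Fxyd6 (0.98) and Chrna4 (0.96), the closest likeness of the set.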

How the data were processed

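Total RNA of whole hippocampus was amplified by the authors from its poly(A) fraction in repeated rounds, with either of 2 kits (which kit served which array is not given in the sources used here), labelled and hybridised to 1-colour Agilent rat arrays, and each spot was read with Agilent Feature Extraction 9.5.3.1 (per the file headers). Probe positions are in build rn4. The main values are the deposited processed signal intensity of 42877 non-control spots, background-subtracted by that software. The deposited matrix of the whole series, rounded ratios per the values, with its reference unstated, was taken to log2 here as an alternative, and followed the scanner values at r = 0.981 to 0.999 per array, with a median of 0.14 on every array.

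Outlier-flagged spots were left out and spots of a probe averaged. Intensities were divided by the array's 75th percentile of probes well above background, as in the authors' methods, and put on the log2 scale. That percentile was 1308 to 1622 in the first scanning session and 1248 to 2058 in the second. Probes well above background on all arrays of at least 1 group (22821 of 30367) entered 1 limma 3.58.1 fit of the 6 groups over 16 arrays, with 10 residual degrees of freedom. R was 4.3.3, data.table version 1.17.8, Python 3.11.15 and matplotlib 3.10.9. Calls were made at an adjusted p under 0.05, by Benjamini-Hochberg over the tested probes. The study used 3 rats per group, and 2 Sham and 2 TBI+E33 arrays were analysed here. The labels give replicates without saying more of their source than the methods do, and their number limits the precision. No 2 arrays were duplicates (r between arrays 0.916 to 0.986). The fit was tested on simulated arrays with independent noise and known changes in TBI. These held no session or slide difference, so they do not bear on such effects.

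The members, partner and marker lists were chosen with earlier results of these data known. All member probes are described, and a partner is named where it was called within a session or in all 3 drug groups against TBI. Of 13 group I partners 12 were found on the array by name and tested, and of 9 partners of groups II and III 8 passed the filter on dim probes. Sums of marker levels are sums of scaled signals over the listed genes with a value. Folds against a group with no array well above background are lower bounds. Alternatives were other scalings, background corrections, filters, tests, blocks and sample sets. Sequences are given for 3 of the 8 receptor probes.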

Additional observations from a re-analysis of the deposited data

How the results depend on the processing

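Counts are of the 8 receptor probes called, in the order TBI against Sham, TBI against Naive, Sham against Naive where 3 are given. They were 0, 1 and 0 in the report. With slide as a random block (correlation of arrays of a slide -0.09) they were 3, 3 and 0, with scaling to the 75th percentile over all probes 0, 3 and 1, and with the filter for probes above background on all arrays 1, 3 and 0. With a trend on G and C content removed they were 0, 4 and 1, and with the methods' t-test unadjusted 3, 2 and 3. TBI against Naive fell to 0 called under quantile normalization, normexp background correction, no filter on dim probes, the authors' matrix, the methods' t-test adjusted, the compared groups alone and slide as a fixed block, and the cause was not tested. For TBI+JM6, TBI+PMI and TBI+E33 against TBI the counts were 5, 3 and 7 in the report. They were 3, 4 and 4 with the 75th percentile over all probes, 2, 2 and 1 under quantile normalization (the last reversed in direction), 2, 0 and 0 with normexp background correction, and 3, 2 and 4 with the filter for all arrays. They were 2, 2 and 2 with the authors' matrix, 2, 2 and 3 with the methods' t-test adjusted, and 2, 3 and 4 with the G and C trend removed, where 2 of the 3 in TBI+PMI were lower. Between drug groups 0 were called, except that the methods' t-test unadjusted called 2 in TBI+JM6 against TBI+E33 and 4 in TBI+PMI against TBI+E33, and slide as a random block called 1 in the latter. Shares of all tested probes under these alternatives are not given, except for quantile normalization in the drug groups against TBI. A count that rose is therefore not read as a result about the receptors.

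Single values were recomputed for the 36 differences with an unadjusted p under 0.05 or a call under quantile normalization. Other differences were not counted. Those that changed direction were as follows. With slide as a fixed block, Grm4 in TBI against Sham was 0.21 (A_43_P15406) and 0.47 (A_64_P163070), and A_43_P15406 in TBI+PMI against TBI+E33 was 0.082. With normexp background correction, Grm5 in TBI against Sham was 0.077, and Grm6 was 0.32 in TBI+JM6 against TBI, -0.0051 in TBI+E33 against TBI and 0.33 in TBI+JM6 against TBI+E33. Grm6 in TBI+E33 against TBI was also -0.52 with the 75th percentile over all probes, -1.31 under quantile normalization, -1.15 with the authors' matrix and -0.90 with the G and C trend removed. Grm8 in TBI+JM6 against TBI was -0.40 under quantile normalization and -0.35 with the authors' matrix, and Grm2 in TBI+E33 against TBI was -0.26 with the G and C trend removed. Of 439 recomputed single values of these 36 differences, 318 kept direction and side of the threshold, 70 lost the call, 37 gained one and 14 changed direction. Of 194 with an array left out, 176 kept both, 13 lost the call and 5 gained one.

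With 1 array left out, the count ranged from 0 to 1 in TBI against Sham, 0 to 2 in TBI against Naive, 0 in Sham against Naive, 5 to 6 in TBI+JM6, 2 to 4 in TBI+PMI and 5 to 7 in TBI+E33 against TBI. The 1 in TBI against Sham came without TBI 1, the 2 in TBI against Naive without Naive 3, and the 0 in it without Naive 1, TBI 1 or TBI 3. In TBI+PMI the 2 came without TBI 3 or TBI+PMI 3. Leaving out arrays took Grm5 in TBI against Sham from -1.55 to -0.57, Grm2 in TBI against Naive from -1.67 to -1.03, the Grm4 probes there from -2.02 to -1.12 and from -2.08 to -1.09, and Grm8 from -2.02 to -1.21. Grm6 in TBI+JM6 ran from -0.63 to -0.33, A_43_P15406 in TBI+PMI from 0.98 to 1.54, and Grm2 and Grm3 in TBI+E33 from 0.84 to 1.17 and from 1.02 to 1.18.

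The labels number the replicates of every group, but same-numbered arrays did not deviate together: over 22 pairs the correlation of deviations from the group mean was -0.19 to 0.18, over 0.1 in 3. With a replicate block the counts were 0, 1, 0 within the first session and 5, 3 and 6 for TBI+JM6, TBI+PMI and TBI+E33 against TBI. The call lost was Grm2 in TBI+E33 (0.93, adjusted p = 0.0829), and Grm8 in TBI against Naive stayed at -1.59 (adjusted p = 0.0291). Values near background (Grm8 and Grm5 in TBI) and groups of 2 or 3 arrays limit what could be called.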
